A study of Schizosaccharomyces pombe with 5 samples.

Results

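The ribosomal stalk of fission yeast (Schizosaccharomyces pombe) is built from the proteins P0, P1 and P2. The genes described here are rpp0 (SPCC18.14c), which encodes P0, the P1 genes rpp101 (SPAC644.15), rpp102 (SPBC3B9.13c) and rpp103 (SPCP1E11.09c), and the P2 genes SPBC23G7.15c and rpp203 (SPAC1071.08). They were chosen by identifier and make up 6 of the 6727 genes counted. SPBC23G7.15c was chosen under the name rpp201, but the RefSeq annotation names it rpp202 and gives the name rpp201 to a further P2 gene, SPBP8B7.06. RefSeq names are used here. SPBP8B7.06 is not one of the 6 genes, and its values are given beside theirs in places so that the P2 family is whole.

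The libraries came from RNA immunoprecipitation followed by sequencing (RIP-seq), in which an antibody brings down a protein together with the RNA bound to it. There were 2 libraries of the immunoprecipitation with an antibody against Slr1p, 1 library of an immunoprecipitation with non-immune rabbit IgG, and 2 libraries of total RNA input extracted with hot phenol. All came from wild-type cells of the strain yAS99, grown in the rich medium YES at 32 °C and treated with formaldehyde to link RNA to protein. The question the design addresses is which RNAs are found with Slr1p, the fission yeast homolog of LARP1.

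The stalk projects from the large ribosomal subunit beside the site where elongation factors bind. P0, also called uL10, sits on the ribosomal RNA next to protein uL11 and carries pairs of P1 and P2, the small acidic proteins. All end in the same flexible tail, which contacts the elongation factors during translation, and the stalk is also known to activate the stress kinase Gcn2. In mammals the mRNAs of ribosomal proteins, the stalk proteins among them, carry at their 5′ cap a run of C and T bases, the terminal oligopyrimidine (TOP) motif, which LARP1 binds.

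The annotated starts of the transcripts are shown because such a motif would lie there. They are the first bases of each RefSeq transcript (assembly ASM294v3), 20 for each gene but rpp102, whose annotated 5′ leader ends after 12. Capitals would mark a run of at least 5 pyrimidines that begins at base 1, 2 or 3.
rpp0: acaaaccaccaaaccagcaa
rpp101: aagagaacagcactggtcaa
rpp102: accaacaccaaa
rpp103: atctacatactcatcacaaa
rpp202: gagacaatttctgcaaagct
rpp203: gcaataaacgaacgcacgcc
rpp201: atcaacacgcactgcactcc
None of these 7 genes has such a run. Each start opens with a purine, and the longest pyrimidine run within the bases shown was 5, in rpp202, after the opening purines. Of 5071 protein-coding genes with an annotated transcript, 471 (9.29%) had a pyrimidine start by this rule, among them 10 of the 130 other ribosomal protein genes (symbols rps or rpl). The annotated starts were taken as they stand, and the deposited counts hold no information on where transcripts begin.

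The ends of the coding sequences are shown because they encode the shared tail. Each line gives the last 48 coding bases before the stop codon, and capitals mark the 29 positions at which all 7 genes have the same base.
rpp0: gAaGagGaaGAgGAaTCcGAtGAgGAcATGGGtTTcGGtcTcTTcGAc
rpp101: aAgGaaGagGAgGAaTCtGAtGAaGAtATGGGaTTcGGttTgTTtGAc
rpp102: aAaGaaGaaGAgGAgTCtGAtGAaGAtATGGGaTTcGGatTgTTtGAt
rpp103: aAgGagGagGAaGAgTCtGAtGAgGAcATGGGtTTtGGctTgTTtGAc
rpp202: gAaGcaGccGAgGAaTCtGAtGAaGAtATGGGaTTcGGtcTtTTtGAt
rpp203: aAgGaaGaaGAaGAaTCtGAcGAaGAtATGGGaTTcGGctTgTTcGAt
rpp201: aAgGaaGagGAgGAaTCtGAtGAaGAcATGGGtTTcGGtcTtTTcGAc
The last 13 residues encoded were identical in all 7 proteins, while the codons that spell them differed. P0 has 312 residues, and P1 and P2 have 109 or 110. Over their whole length the P1 proteins were 84.5 to 92.8% identical to each other, and the P2 proteins 77.9 to 90.9%.

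Reads of these paralogs can be told apart by sequence. The coding sequences of the P1 genes were 77.8 to 83.5% identical and those of the P2 genes 71.7 to 85.3%, and the longest identical stretch between any 2 of the 7 transcripts was 38 bases, in rpp101 and rpp201. Per the labels, reads were 50 bases from each end, and 0 of the 1007 windows of 50 bases in rpp0, of the 597 in rpp101, and of the 375 to 401 in each of the others occurred in another annotated transcript or a second time in the genome. Each gene lies on chromosome I (rpp101, rpp203), II (rpp102, rpp202, rpp201) or III (rpp0, rpp103), and all have 1 intron except rpp102, which has 2. The strand setting of the counting is not given in the sources used here, and 3 of the 6 genes overlap a counted gene on the opposite strand. The overlap of rpp203 with SPAC1071.09c is 522 bases with the intron included, where the annotated transcript of rpp203 has 428 bases. SPAC1071.09c had at most 3292 reads in any library, and rpp203 had 22.9 to 50.6 times as many in the same library. For rpp102 and rpp202, whose overlaps are 113 and 143 bases, the ratios were 78.7 or more. What the overlaps added to or took from these counts was not tested.

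Gene counts totalled between 62802923 and 65859940 in the Slr1p and input libraries and 12882920 in the IgG library. The 6 genes took 1.35% and 1.51% of counts in the Slr1p libraries, 1.32% in IgG, and 1.15% and 0.983% in input, with 95% Wilson intervals no wider than 1.31 to 1.33% (IgG), which cover counting error only. The IgG library stood apart from the others. The mitochondrially encoded genes cob, cox1, cox2 and urf_a together took 4.73% of IgG counts and at most 0.00154% elsewhere. The 130 other ribosomal protein genes took 15.4% of IgG counts, against 34.0% and 36.4% in the Slr1p libraries and 33.7% and 28.7% in input. All values of IgG given here rest on this single library, and the part of its composition in the results was not tested. Normalised read counts are given in CPM, the usual count scaled to library size, with TMM factors applied, and are thus shares of a library, so a gain of one RNA and a loss of others cannot be told apart.

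Per kilobase of annotated transcript, the scale on which genes can be compared, the order of the 6 mRNAs was not the same in the immunoprecipitates as in input. In the Slr1p libraries the highest level was that of rpp102 with 6136 ± 882 CPM per kb, followed by rpp202 with 5280 ± 1204, rpp103 with 4851 ± 726, rpp0 with 3994 ± 521, rpp203 with 3621 ± 371 and rpp101 with 2738 ± 421 (SD, n = 2 each). Neighbours in that order lay within their spreads of each other except for rpp203 and rpp101. In IgG the order was rpp102 (6704 CPM per kb), rpp103 (4393), rpp203 (4094), rpp202 (3056), rpp0 (3031) and rpp101 (1962). In input it was rpp202 with 5516 ± 1304 CPM per kb, rpp0 with 4494 ± 712, rpp102 with 2770 ± 365, rpp101 with 2064 ± 565, rpp103 with 1480 ± 188 and rpp203 with 1350 ± 199 (SD, n = 2 each). Only rpp0 and rpp102 were neighbours whose spreads in input did not meet. The level of rpp101 depends most on the annotation, which gives it a 3′ untranslated region of 295 bases, against 39 to 93 in the other 5.

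**Figure D1:**
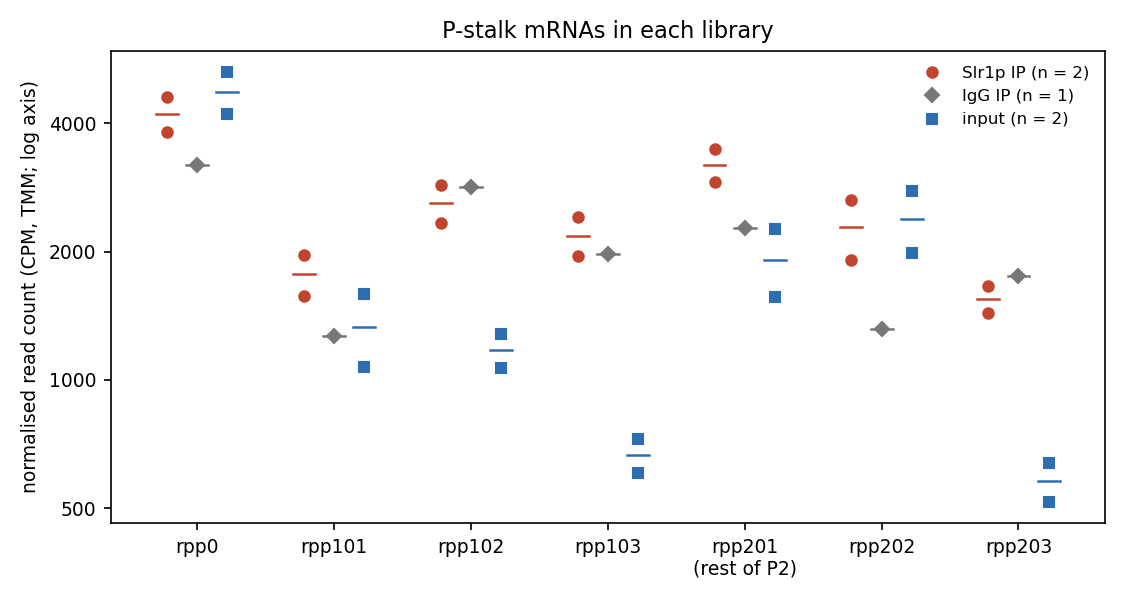
Normalised read count (CPM, log axis) of each P-stalk mRNA in every library, with circles for Slr1p immunoprecipitation, diamonds for IgG and squares for input, and a short line at each group mean. The mRNAs of rpp102, rpp103 and rpp203 lie higher in all 3 immunoprecipitates than in both input libraries, with rpp203 at 1438 to 1752 CPM against 638 and 518 CPM.

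The comparison of the Slr1p immunoprecipitation with input asks which mRNAs were enriched over their level in the cell. The P1 genes rpp102 and rpp103 and the P2 gene rpp203 rose, by 2.22, 3.28 and 2.68 times, while rpp0, rpp101 and rpp202 were not called. Thus 3 of the 6 genes were higher and 0 lower by the edgeR quasi-likelihood test at an adjusted p under 0.05, where 35.0% of all 6376 genes tested were higher and 34.2% lower (69.2% in either direction). A count of 3 in 6 is near that background, so the values of the single genes carry the description. The median log2 fold change of the 6 was 0.78, beside 0.03 over all genes tested.

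The mRNA of rpp103 stood at 1952 and 2414 CPM in the Slr1p libraries and at 726 and 606 CPM in input. Both Slr1p values lay well above the higher input value. Its log2 fold change was 1.71 with an SE of 0.20 (edgeR adjusted p = 1.24e-06), at rank 166 of the 6376 genes tested. The mRNA of rpp203 stood at 1438 and 1662 CPM in the Slr1p libraries and at 638 and 518 CPM in input (log2 fold change 1.42, SE 0.18, edgeR adjusted p = 4.37e-06). That of rpp102 stood at 2337 and 2866 CPM in the Slr1p libraries and at 1284 and 1065 CPM in input (log2 fold change 1.15, SE 0.20, edgeR adjusted p = 1.13e-04). For these 3 genes the groups did not overlap, but how many of all genes tested did the same was not counted. Since 69.2% of all genes tested were called in this comparison, nothing particular to these genes is read from it. These 3 were also called in a fit without the IgG library.

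The mRNA of rpp0, which encodes the protein that carries the others, had 3828 and 4607 CPM in the Slr1p libraries and 5277 and 4214 CPM in input, and the groups overlapped (log2 fold change -0.17, SE 0.23, edgeR adjusted p = 0.521). That of rpp202 had 1913 and 2649 CPM in the Slr1p libraries and 2781 and 1984 CPM in input and overlapped as well (-0.06, SE 0.22, edgeR adjusted p = 0.816). Its sign was positive without Slr1p replicate 1 (0.13) and without input replicate 1 (0.19). The mRNA of rpp101 had 1576 and 1961 CPM in the Slr1p libraries and 1591 and 1075 CPM in input (0.41, SE 0.21, edgeR adjusted p = 0.0948). Without input replicate 1 its log2 fold change was 0.71 and called (edgeR adjusted p = 2.71e-04), and without input replicate 2 it was 0.15 (edgeR adjusted p = 0.507). It was also called with library totals alone (0.41, edgeR adjusted p = 0.00947) and by DESeq2 (0.39, adjusted p = 0.0489), and then 4 of the 6 genes were higher. All 6 mRNAs were higher in Slr1p replicate 2 than in replicate 1, and all 6 were higher in input replicate 1 than in replicate 2. The summed share of the 130 other ribosomal protein genes moved the same way. It was 34.0% and 36.4% of counts in Slr1p replicates 1 and 2, and 33.7% and 28.7% in input replicates 1 and 2. Of the remaining P2 gene, rpp201, there were 2910 and 3475 CPM in the Slr1p libraries and 2255 and 1564 CPM in input (0.74, SE 0.22, edgeR adjusted p = 0.00759). That call was lost without Slr1p replicate 2 (0.60) and without input replicate 2 (0.50), and also after correction for transcript length and base composition, in which the smooth dependence of each library's counts on length and GC content was taken out (0.34, edgeR adjusted p = 0.0515).

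**Figure D2:**
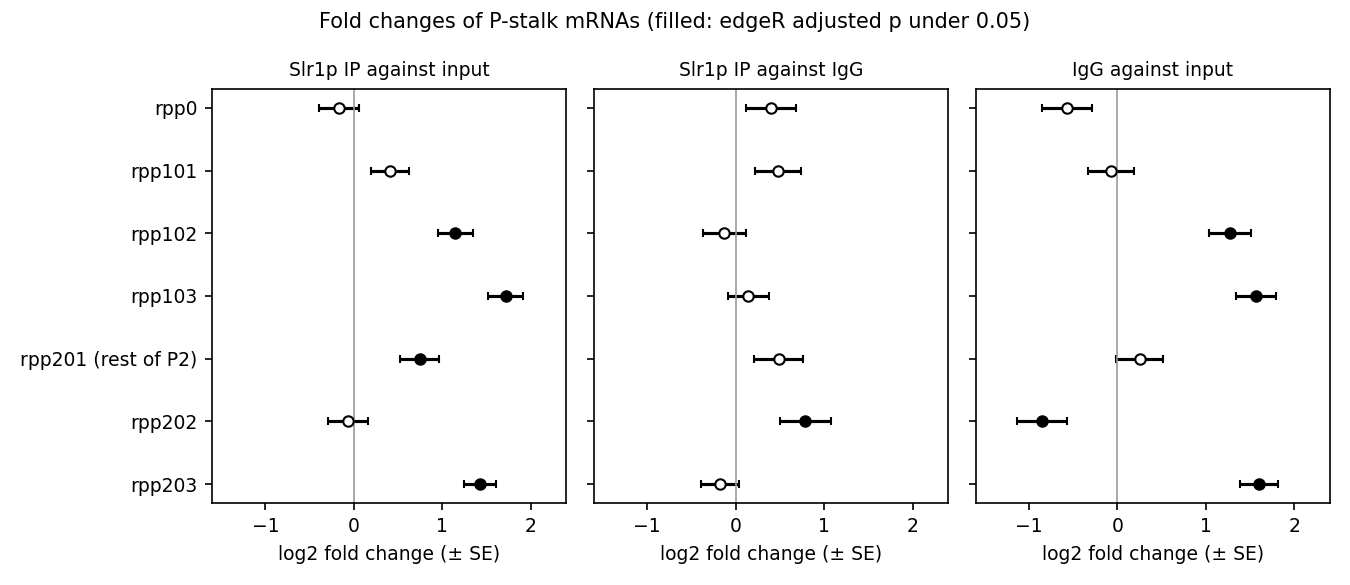
Log2 fold change with its standard error (bars) of each P-stalk mRNA in the 3 comparisons, all from 1 edgeR fit. Filled points passed an adjusted p of 0.05: rpp102, rpp103 and rpp203 are filled and above 0 against input both after Slr1p and after IgG immunoprecipitation, and of the 6 genes only rpp202 is filled between Slr1p and IgG.

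The comparison with IgG asks which mRNAs exceeded the background of the immunoprecipitation. Of the 6 genes, 1 was higher and 0 were lower than in IgG, where 34.0% of all genes tested were higher and 32.3% lower (66.3% in either direction), and the median log2 fold change of the 6 was 0.27, beside 0.07 over all genes tested. The gene that rose was rpp202, with 1913 and 2649 CPM in the Slr1p libraries against 1320 CPM in IgG (log2 fold change 0.79, SE 0.28, edgeR adjusted p = 0.0227). The call was lost without Slr1p replicate 2 (0.52, edgeR adjusted p = 0.283) and after the length and GC correction (0.23, edgeR adjusted p = 0.318).

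The 3 mRNAs that were enriched over input were not called against IgG. That of rpp103 had 1952 and 2414 CPM in the Slr1p libraries against 1977 CPM in IgG, which lies between them (0.14, SE 0.23, edgeR adjusted p = 0.602). For rpp102 the IgG value of 2842 CPM also lay between the Slr1p values of 2337 and 2866 CPM (-0.13, SE 0.24, edgeR adjusted p = 0.658). For rpp203 the IgG value of 1752 CPM lay above both Slr1p values of 1438 and 1662 CPM (-0.18, SE 0.22, edgeR adjusted p = 0.487). After the length and GC correction 3 of the 6 genes were called lower than in IgG and 0 higher, where 22.6% of all genes were lower and 27.0% higher. They were these 3, at -0.45 for rpp103, -0.72 for rpp102 and -0.77 for rpp203 (edgeR adjusted p = 0.0251, 0.00156 and 6.04e-04).

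The mRNA of rpp0 had 3828 and 4607 CPM in the Slr1p libraries against 3200 CPM in IgG (log2 fold change 0.40, SE 0.28, edgeR adjusted p = 0.228). The mRNA of rpp101 had 1576 and 1961 CPM in the Slr1p libraries against 1267 CPM (0.48, SE 0.26, edgeR adjusted p = 0.118). Both Slr1p values exceeded the single IgG value for these genes, but neither gene was called. After the length and GC correction they were at -0.08 and -0.15.

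The IgG library was itself compared with input, to show how much of the difference from input was present without the Slr1p antibody. The same 3 genes were higher in IgG than in input and rpp202 was lower, so that 3 of the 6 were higher and 1 lower, where 34.1% of all genes tested were higher and 36.5% lower (70.6% in either direction). This comparison shares its input libraries with that of Slr1p and input, so the calls are not independent. The mRNA of rpp203 had 1752 CPM in IgG and 638 and 518 CPM in input (log2 fold change 1.60, SE 0.21, edgeR adjusted p = 5.75e-06). That of rpp103 had 1977 CPM in IgG and 726 and 606 CPM in input (1.57, SE 0.22, edgeR adjusted p = 1.29e-05). That of rpp102 had 2842 CPM in IgG and 1284 and 1065 CPM in input (1.28, SE 0.24, edgeR adjusted p = 1.78e-04). In each case the IgG value was more than 2 times the higher input value. The mRNA of rpp202 fell, to 1320 CPM in IgG against 2781 and 1984 CPM in input (-0.85, SE 0.29, edgeR adjusted p = 0.0143). That of rpp0 had 3200 CPM in IgG and 5277 and 4214 CPM in input, a difference that was not called (-0.57, SE 0.29, edgeR adjusted p = 0.0884) but was with library totals alone (-0.44, edgeR adjusted p = 0.0195) and by DESeq2 (-0.56, adjusted p = 0.00521). For rpp101 the IgG value of 1267 CPM lay between the input values of 1591 and 1075 CPM (-0.07, SE 0.26, edgeR adjusted p = 0.810), and the sign was positive with library totals alone (0.06).

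The paralogs of each family therefore took different shares of the family's reads in the immunoprecipitates than in input. Among P1 reads, rpp101 took 26.9% and 27.1% in the Slr1p libraries, 20.8% in IgG, and 44.2% and 39.1% in input. The share of rpp103 was 33.3% in both Slr1p libraries, 32.5% in IgG, and 20.2% and 22.1% in input. The share of rpp102 was 39.8% and 39.6% in the Slr1p libraries, 46.7% in IgG, and 35.7% and 38.8% in input, where the gap between the Slr1p libraries and input replicate 2 was smaller than that between the 2 input libraries.

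Among P2 reads rpp202 took a smaller share in the immunoprecipitates than in input, and rpp203 and rpp201 took larger ones. The share of rpp203 was 22.96% and 21.3% in the Slr1p libraries, 32.8% in IgG, and 11.2% and 12.7% in input. That of rpp202 was 30.6% and 34.0% in the Slr1p libraries, 24.7% in IgG, and 49.0% and 48.8% in input. The remaining gene rpp201 took 46.5% and 44.6% in the Slr1p libraries, 42.5% in IgG, and 39.7% and 38.5% in input. Each share rests on at least 73638 reads, and its 95% Wilson interval spanned less than 1 percentage point. The shares of a family add up to its whole, so they are not independent of each other. In Slr1p against input rpp101 (log2 fold change 0.41) and rpp202 (-0.06) were not called, although their shares were smaller. For rpp101, rpp103, rpp201, rpp202 and rpp203 the Slr1p and input libraries did not overlap and differed by more than the replicates of either group. How often shares in other paralog families did the same was not counted, and 69.2% of all genes tested were called between these groups. A two-sided exact permutation test of 2 libraries against 2 cannot go below p = 0.333, so no test was made.

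**Figure D3:**
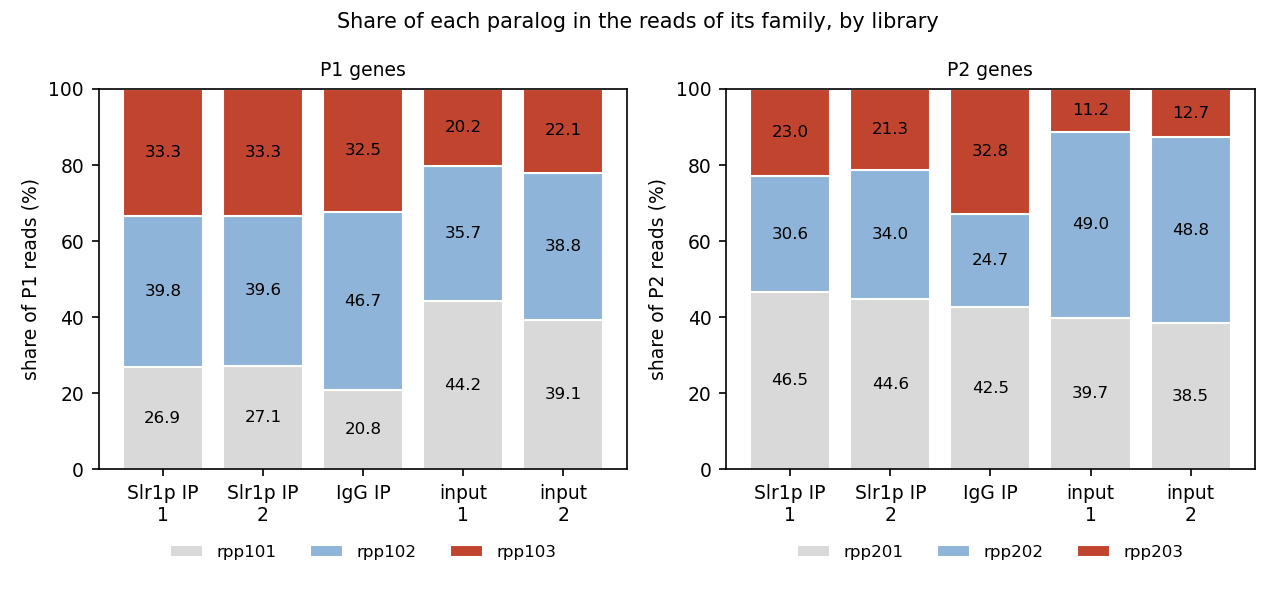
Share of each paralog, in percent, in the summed reads of the P1 genes (left) and of the P2 genes (right), 1 bar for each library. The red block at the top, rpp103 on the left and rpp203 on the right, is larger in the Slr1p and IgG bars (33.3, 33.3 and 32.5% for rpp103) than in the input bars (20.2 and 22.1%).

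The balance between the 3 proteins' mRNAs shifted as well. Counted per kilobase, the P1 mRNAs summed to 3.39 and 3.48 times the level of rpp0 in the Slr1p libraries, 4.31 times in IgG, and 1.42 and 1.38 times in input. The P2 mRNAs, rpp201 included, summed to 4.02 and 4.15 times the level of rpp0 in the Slr1p libraries, 4.10 times in IgG, and 2.64 and 2.37 times in input. The sum of P1 was 0.844 and 0.838 times that of P2 in the Slr1p libraries, 1.05 times in IgG, and 0.539 and 0.585 times in input. For each of these 3 ratios both Slr1p libraries lay nearer to IgG than to either input library.

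Set among the other ribosomal protein genes, rpp102, rpp103 and rpp203 stood near or at the top against input and below all others against IgG. Of the 130 rps and rpl genes tested, 126 were higher in the Slr1p immunoprecipitation than in IgG and 0 lower. Of all genes tested, 34.0% were higher and 32.3% lower. The medians were 1.33 for the 40S genes and 1.37 for the 60S genes. After the length and GC correction 106 of the 130 were higher and 0 lower, where 27.0% of all genes were higher. The median over the 130 was 1.34 as reported, 0.76 after that correction, 1.44 without Slr1p replicate 1 and 1.22 without Slr1p replicate 2. All 130 had a larger log2 fold change against IgG than rpp102, rpp103 and rpp203, 129 had a larger one than rpp0, 128 than rpp101 and 120 than rpp202. Leaving out either Slr1p library, correcting for length and GC, or changing the scaling, tool or filter left the count at 130 for rpp102, rpp103 and rpp203. In IgG against input, 2 of the 130 were higher and 103 lower, where 34.1% of all genes tested were higher and 36.5% lower. The medians were -1.23 for the 40S genes and -1.15 for the 60S genes. In all 8 fits of that comparison, 0 of the 130 had a larger log2 fold change than rpp102, rpp103 or rpp203. The largest of the 130 was that of rpl13, at 0.62. In Slr1p against input the medians were 0.17 (40S) and 0.20 (60S). There 39 of the 130 were higher and 17 lower, where 35.0% of all genes tested were higher and 34.2% lower. These counts depended on single libraries: 30 were higher and 1 lower without Slr1p replicate 1, 21 and 6 without Slr1p replicate 2, 58 and 9 without input replicate 1, and 32 and 27 without input replicate 2, with a median over the 130 between -0.01 and 0.40. With the replicate number as a block 31 were higher and 9 lower. In the fit of all libraries 0 of the 130 exceeded rpp103, 3 exceeded rpp203 and 6 exceeded rpp102, while 45 exceeded rpp101, 92 rpp202 and 98 rpp0. Over the alternatives the number above rpp103 was 0 to 2 (1 without Slr1p replicate 2, 2 without input replicate 2) and that above rpp203 was 2 or 3. The number above rpp102 was 4 to 13 (4 without input replicate 1, 12 without input replicate 2, 13 after the length and GC correction). After the length and GC correction 35 of the 130 were higher and 37 lower than in input, with a median of -0.03. These positions are descriptions, and no test of the stalk genes as a group against the others was made.

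**Figure D4:**
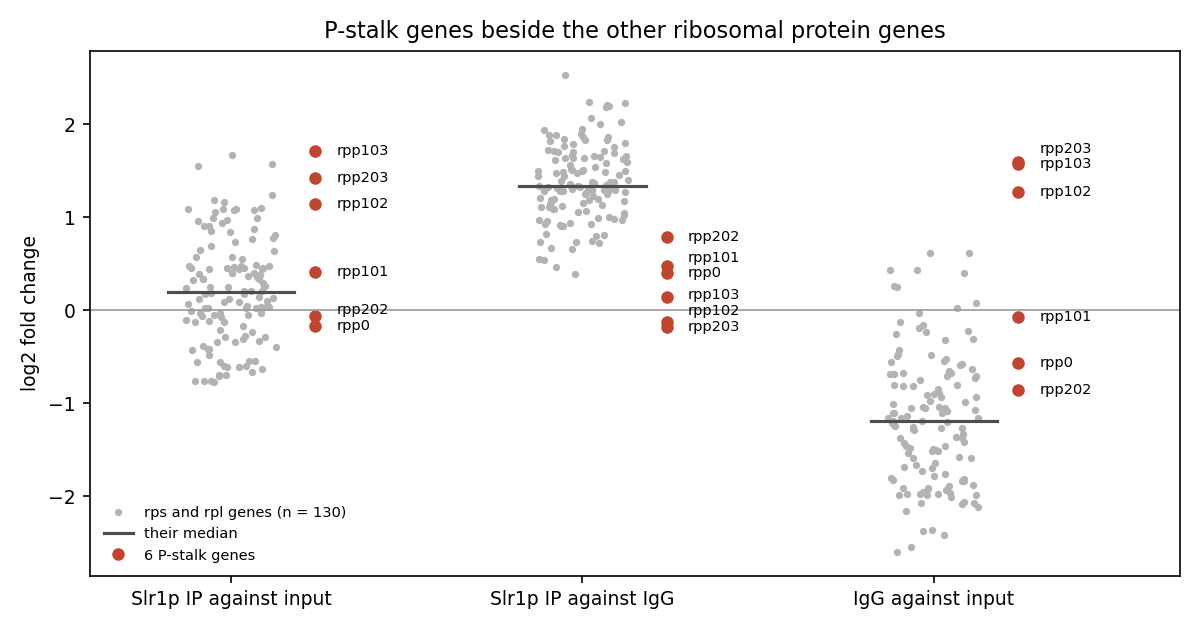
Log2 fold change of the 130 rps and rpl genes (grey, with their median as a line) and of the 6 P-stalk genes (red, named) in the 3 comparisons. In Slr1p against IgG rpp102, rpp103 and rpp203 lie below all grey points, and in IgG against input they lie above all of them.

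Genes that work with the stalk were followed from a list of symbols, of which 17 of 19 were found. The mRNAs of uL11, the neighbour of P0 on the ribosome, were higher than in IgG, at 1.69 for rpl1201 (SE 0.28, edgeR adjusted p = 7.05e-05) and 1.87 for rpl1202 (SE 0.27, edgeR adjusted p = 1.87e-05), and were not called against input (0.36 and -0.01). That of rpl1201 was called higher than input without input replicate 1 (0.70, edgeR adjusted p = 7.90e-06) and with library totals alone (0.36, edgeR adjusted p = 0.0277). The mRNA of mrt4, an assembly factor known from budding yeast to hold the place of P0 on the immature subunit, was lower than in input, with 229 and 234 CPM in the Slr1p libraries and 458 and 368 CPM in input (-0.83, SE 0.14, edgeR adjusted p = 4.99e-05). It was higher than in IgG, at 132 CPM (0.81, SE 0.17, edgeR adjusted p = 7.19e-04), a call lost after the length and GC correction (0.33, edgeR adjusted p = 0.0690). Over all genes tested 34.0% were higher than in IgG and 34.2% lower than in input. The genes rpl1201, rpl1202 and mrt4 were all lower in IgG than in input, as were 36.5% of all genes tested and 103 of the 130 rps and rpl genes. In that comparison rpp102, rpp103 and rpp203 were higher.

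Of 7 elongation factor genes, 5 were higher and 0 lower in Slr1p than in input, with a median log2 fold change of 0.66. Against IgG 3 were higher and 3 lower, with a median of 0.07. Over all genes tested 35.0% were higher than in input and 34.2% lower, and 34.0% were higher than in IgG and 32.3% lower. Higher than input were tef101 (0.90), tef102 (0.60) and tef103 (1.34), which encode EF-1 alpha, the factor that delivers aminoacyl-tRNA, eft202 (0.81), which encodes elongation factor 2, the factor that moves the ribosome along the mRNA, and tef3 (0.66), which encodes the fungal elongation factor 3. The call of tef3 against input was lost without any 1 of the 4 Slr1p and input libraries, that of tef102 without either Slr1p library, and those of tef101 and eft202 without Slr1p replicate 2, which left 3 of the 7 called without Slr1p replicate 1 and 1 without replicate 2. Against IgG tef101 (0.87), tef103 (1.07) and tef5 (1.32), for a subunit of the EF-1 exchange factor, were higher, and eft202 (-0.94), tef3 (-0.82) and eft201 (-0.48) were lower. Without Slr1p replicate 1 these counts were 2 higher and 0 lower, and without Slr1p replicate 2 they were 1 higher and 1 lower. The calls of tef101, tef3 and eft201 were lost in both cases, that of eft202 without replicate 1 and that of tef103 without replicate 2. After the length and GC correction 0 of the 7 were lower than in IgG, with tef3 at 0.21 and eft201 at 0.24.

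All 4 genes of the Gcn2 pathway were higher than in input, where 35.0% of all genes tested were higher. They were at 1.26 for the kinase gene gcn2, 0.99 for its activator gcn1, 0.83 for gcn20 and 0.49 for fil1 (median 0.91). Of these, fil1 is a transcription factor gene downstream of the kinase. The call of fil1 was lost without either Slr1p library. Against IgG 3 of them were lower, gcn1 at -2.30, gcn2 at -1.95 and fil1 at -1.41, and gcn20 was higher at 0.49. Over all genes tested 32.3% were lower than in IgG and 34.0% higher. After the length and GC correction gcn1 was at 0.15 and gcn2 at -0.29, neither called. The call of gcn20 was lost without either Slr1p library (0.42 and 0.51) and with library totals alone (0.37). In IgG against input all 4 Gcn2 pathway genes were higher, where 34.1% of all genes tested were higher. The values were 3.29 for gcn1, 3.21 for gcn2, 1.90 for fil1 and 0.34 for gcn20. After the length and GC correction gcn1 (0.30) and gcn20 (0.05) were no longer called, while gcn2 and fil1 stayed higher. Protein kinase CK2 is known from budding yeast to phosphorylate the acidic stalk proteins. Its genes cka1 and ckb1 were lower than in input (-1.10 and -0.97) and ckb2 was higher (0.72), where 34.2% of all genes tested were lower and 35.0% higher. Against IgG 0 of the 3 were called, where 66.3% of all genes tested were. There ckb1 was called higher after the length and GC correction (1.15), where 27.0% of all genes were higher. The mRNA of slr1 itself was higher than in input (0.56, SE 0.13, edgeR adjusted p = 0.00118) and not called against IgG (0.09, edgeR adjusted p = 0.625).

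Between the stalk mRNAs themselves, patterns over the 5 libraries were compared by the root mean square difference of log2 CPM after each gene's mean was subtracted. By that measure rpp103 and rpp203 differed by 0.15, rpp102 and rpp203 by 0.15, and rpp0 and rpp202 by 0.16, while rpp103 and rpp202 differed by 1.00. A P1 gene and a P2 gene were thus closer to each other in pattern than rpp203 was to its nearest relative in sequence, rpp201 (0.50), whose protein is 90.9% identical.

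Among the 1282 genes with a mean of at least 100 CPM, the patterns most like that of rpp103 were those of gln1, for glutamine synthetase (0.15), SPAPB18E9.05c (0.15) and mak16 (0.20). Those most like rpp203 were zpr1, for a zinc finger protein that binds EF-1 alpha (0.18), gud1, for guanine deaminase (0.19), and pwp1 (0.20), and those most like rpp102 were dak1 (0.14), gud1 (0.16) and SPCC594.02c (0.18). No rps or rpl gene was among the 3 nearest to these genes. For the other 3 genes each had at least 1 ribosomal protein gene among its 3 nearest, rpl502 for rpp0 (0.07), rps1201 for rpp101 (0.08), and rpl14 and rpl802 for rpp202 (0.09 each). The remaining nearest were sod1 and dug1 for rpp0, SPBC1703.13c and rki1 for rpp101, and mmf1 for rpp202. These neighbours depended on the abundance minimum: without one, 0 of the 3 remained for rpp101, rpp102, rpp103 and rpp203.

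**Figure D5:**
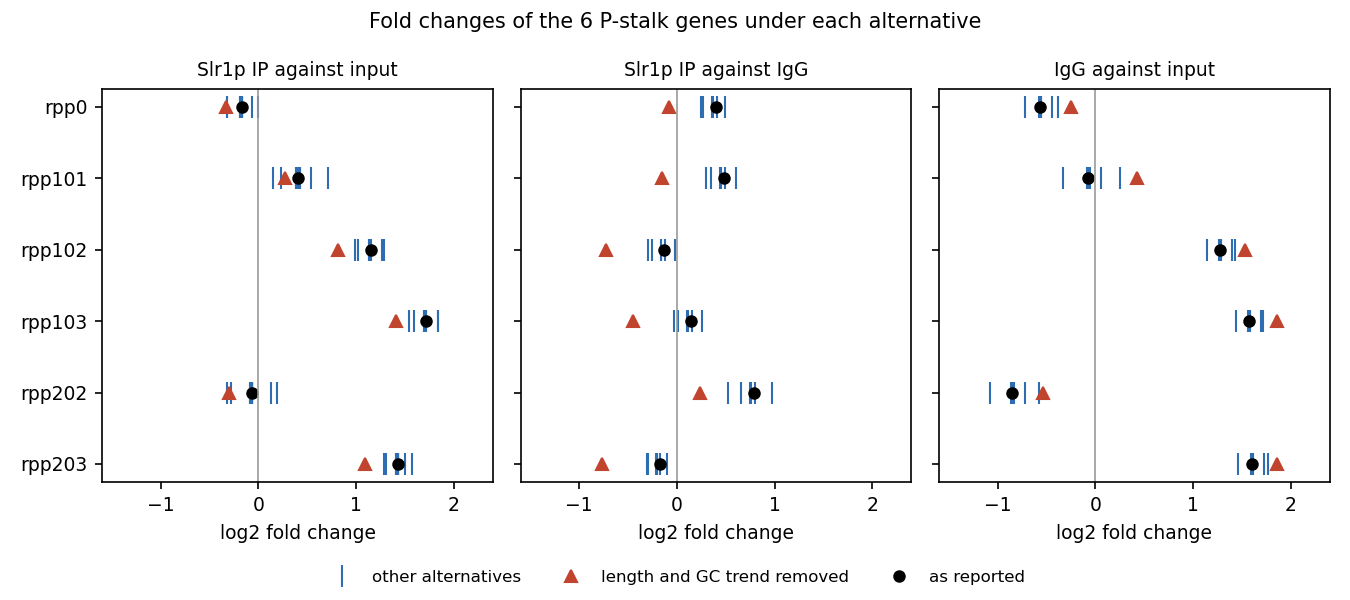
Log2 fold change of the 6 P-stalk genes in each comparison as reported (black circles), after the length and GC correction (red triangles) and under every other alternative (blue ticks). Against input rpp102, rpp103 and rpp203 stay above 0.8 in all settings, and against IgG the red triangles lie furthest to the left for all 6 genes.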

How the data were processed

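RNA immunoprecipitation libraries of Slr1p (2), non-immune IgG (1) and total RNA input (2) from 1 strain of fission yeast were analysed from the authors' deposited read counts per gene, which are raw whole-number counts of 6727 genes. The submitters' processing notes name, with no role or order, HTSeq 0.6.1p2, STAR 2.6.0c, Trim Galore, FastQC 0.11.5 and bcl2fastq 2.20. The genome build and annotation were not given in the sources used here, nor were the strand setting and the treatment of reads with several positions. Per the labels, libraries were strand-specific and sequenced in paired reads of 50 bases.

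Counts were scaled by TMM (factors 0.932 to 1.07), genes were filtered with filterByExpr (351 removed, 6376 tested), and a quasi-likelihood model with 1 mean per group was fitted to all 5 libraries in edgeR 4.0.16 (limma 3.58.1, R 4.3.3). Calls were made at an adjusted p under 0.05 (Benjamini-Hochberg over all genes tested). A standard error is the absolute log2 fold change divided by the square root of the F statistic. The IgG group has 1 library, so its spread is assumed to be that of the others (2 residual degrees of freedom, 13.5 prior degrees of freedom, common biological coefficient of variation 0.101). The labels call the Slr1p libraries, and likewise the input libraries, biological replicates 1 and 2. Whether replicates came from separate cultures is not said, so p-values measure the spread between these libraries only. Replicates were not one library deposited again: between the 2 Slr1p libraries the chi-square per degree of freedom over genes was 44.4, and between the 2 input libraries 194.

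Alternatives were library totals without TMM, size factors from DESeq2 1.42.0, the DESeq2 Wald test, no filter, removal of the trend with length and GC content (natural splines of 4 degrees of freedom each, as an offset), leaving out each replicate or the IgG library, and the replicate number as a block. The fit was tested on simulated data with known changes. Wilson intervals are at 95% confidence and cover counting error only.

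Identifiers were matched to RefSeq ASM294v3 (6531 of 6727 matched), the source of names, transcript lengths and sequences, and positions are left out since that assembly may differ from the one behind the counts. Genes were named by a rule: the 6 stalk genes, the genes of the pathway lists, slr1, and for each stalk gene the 3 genes nearest in pattern (log2 CPM with a prior count of 2). The rps and rpl genes are given by counts and medians, and rpl13 was named as their largest value after its value was seen. The stalk genes and the lists were chosen with earlier results of these data known.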

Additional observations from a re-analysis of the deposited data

How the results depend on the processing

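Against input, rpp102, rpp103 and rpp203 were called higher in all 12 alternatives for the Slr1p immunoprecipitation and in all 7 for IgG, with log2 fold changes of at least 0.81 and 1.15. The comparison with IgG depended most on the processing. After the length and GC correction 3 of the 6 stalk genes were called, all lower, in place of 1 called higher, and the sign turned for rpp0 (-0.083), rpp101 (-0.15), rpp103 (-0.45) and rpp201 (-0.16). The cause was not tested. Leaving out 1 Slr1p library gave 0 to 1 called genes there, and rpp103 from -0.032 to 0.26. In IgG against input rpp101 turned to 0.060 with library totals alone and 0.42 after the correction, and ranged from -0.33 to 0.25 without 1 input library. In Slr1p against input rpp202 ranged from -0.33 to 0.19 when 1 library was left out. Library totals alone moved the median of all genes from 0.07 to -0.05 (Slr1p against IgG) and from -0.06 to 0.06 (IgG against input). Per kilobase of transcript, rpp101 took 19.9% of the P1 level in the Slr1p libraries, 15.03% in IgG and 32.4% in input, with the same direction as by reads.

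The labels do not say that replicate numbers mark shared cultures, and deviations of same-numbered libraries correlated at -0.178 over 4700 genes. With the replicate number as a block, 3 stalk genes and 4207 of all genes were called in Slr1p against input, beside 3 and 4413 without it. With the numbers crossed, an alternative chosen after seeing the data, 4 and 4617 were called. The IgG library, with 12882920 counts and no replicate, sets the precision of every value that uses it.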
